A study of Mus musculus with 2 samples.

Results

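The Six-family and Eya-family genes are 9 of the 16908 genes with at least 3 probes on a pair of mouse promoter tiling arrays that were hybridised with Ring1B chromatin from embryonic stem (ES) cells. The members were taken by name: Six2, Six3, Six4, Six5 and Six6, and Eya1, Eya2, Eya3 and Eya4. A probe counted for a member if the array files gave it that gene name, alone or as one side of a hyphen-joined name for a promoter shared by a divergent pair, so that Six3os1 (the antisense partner of Six3) and Mnat1 (the partner of Six4) were described too. The members held 308 of 474222 usable probes. Each member had at least 20 probes, so none was lost to the minimum of 3.

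The assay was ChIP-chip, in which DNA recovered with an antibody is measured on an array beside input DNA from chromatin that saw no antibody. DNA of the Ring1B immunoprecipitate (IP) of mouse ES cells carried Cy5, and input DNA of ES cells carried Cy3. The labels gave no genotype, treatment or time, and source names beginning with Muscle stood beside titles that named ES cells. The 2 arrays were different slides of one promoter set with 0 probes in common, so each member was measured on 1 array, without replicates, dye swap or mock immunoprecipitation.

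Six-family proteins are homeobox transcription factors, and Eya proteins are protein phosphatases that have no DNA-binding domain of their own and act as coactivators of Six-family proteins. With Pax and Dach proteins they form a network that builds the eye, ear, kidney, muscle and parts of the forebrain. Ring1B, encoded by Rnf2, is the catalytic subunit of Polycomb repressive complex 1, which puts ubiquitin on a core histone at developmental genes and keeps many of them silent in ES cells.

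All values are log2 ratios of IP over input signal, centred on the median probe of the array, so that 0 is the median probe and 1 is 2-fold above it. Each gene is given as the mean of all its probes, upstream of the start and inside the gene, with their SD. The SD describes how the ratio varied along the tiled stretch and is not an error over repeated experiments, and no p-value was computed. Array 1 had 237054 usable probes and array 2 had 237168, input signal stood well above background at 74.1% and 76.3% of them, and with 1 array per member the precision cannot be estimated from repeats. Six5, Eya1, Eya2 and Eya3 lay on array 1 and Six2, Six3, Six4, Six6 and Eya4 on array 2. Of all genes, 1.63% on array 1 and 2.36% on array 2 had a mean of at least 1. A difference between genes of different arrays cannot be told apart from a difference between the arrays.

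The probes with the highest and lowest ratios show which DNA was recovered, and they are printed for the genes on which the results turn. Only probes well above background in both channels are shown, and capitals mark CG dinucleotides, the sites of vertebrate DNA methylation. Probe coordinates are those of the array files; no build for them is given in the sources used here. The highest probe of Six3 (chr17:83916417-83916463, in the promoter shared with Six3os1) had a log2 ratio of 4.09 ± 0.45, where the error is that of the scanner software for 1 spot, from an IP signal of 41853 and an input signal of 2196. The highest probe of Six6 (chr12:70892216-70892260, inside the gene) had 3.81 ± 0.43 and that of Six2 (chr17:83987275-83987324, upstream) had 3.50 ± 0.40. The highest probe of Six5 (chr7:16777575-16777619, inside the gene) had 2.16 ± 0.30. Eya4 held both a high probe (chr10:23108570-23108629, upstream) at 3.79 ± 0.48 and one of the lowest of the family (chr10:23110462-23110521, farther upstream) at -4.19 ± 0.46. The lowest member probe above background in both channels belonged to Six4 and Mnat1 (chr12:71068040-71068093) and had -4.57 ± 0.51, from an IP signal of 92.5 and an input signal of 1968.
Six3 highest probe: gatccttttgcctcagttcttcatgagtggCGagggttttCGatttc
Six6 highest probe: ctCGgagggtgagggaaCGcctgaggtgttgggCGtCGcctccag
Six2 highest probe: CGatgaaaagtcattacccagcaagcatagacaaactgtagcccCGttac
Six5 highest probe: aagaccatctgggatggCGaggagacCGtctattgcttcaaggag
Eya4 highest probe: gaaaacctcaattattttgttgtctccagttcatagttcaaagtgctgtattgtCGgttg
Eya4 lowest probe: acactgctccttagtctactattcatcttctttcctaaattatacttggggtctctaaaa
Six4 lowest probe: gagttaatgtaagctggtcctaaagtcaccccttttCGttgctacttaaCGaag

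Promoters of Six3os1, Six6 and Eya3 from the RefSeq table (build GRCm38.p6, from 250 bases before to 50 after the start) are printed as examples. They were picked for their different ratios among the promoters in which array probes matched by sequence. Probes also matched in promoters of Six4 (15 CG, log2 ratio 0.66), Six5 (17 CG, -0.11 and 0.88), Eya4 (36 CG, 0.74) and Mnat1 (12 CG, 0.59). Whether CG content goes with the ratio was not tested. The motif searched was CG, which reads the same on both strands; 94.6% of the 32851 promoters in the table held at least 1, with a median of 7. Of the 9 members, 7 had a promoter in the table. The promoter of Six3os1 (chr17:85618347-85618646, minus strand) held 20 CG, and its probes had log2 ratios of 3.27 and 4.09. The second of these is the Six3 probe printed above, and it covered positions -7 to 39 around the start of the antisense transcript. The promoter of Six6 (chr12:72939632-72939931, plus strand) also held 20 CG, with probes at 1.11 and 0.36. The promoter of Eya3 (chr4:132638796-132639095, plus strand) held 25 CG and its probe had -0.43.
Six3os1 promoter: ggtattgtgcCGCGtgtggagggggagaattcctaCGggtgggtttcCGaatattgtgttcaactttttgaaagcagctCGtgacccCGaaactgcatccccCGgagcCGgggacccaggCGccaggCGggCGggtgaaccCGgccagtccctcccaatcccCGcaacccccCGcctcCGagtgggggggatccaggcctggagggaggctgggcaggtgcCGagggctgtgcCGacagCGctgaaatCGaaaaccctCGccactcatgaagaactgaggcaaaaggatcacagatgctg
Six6 promoter: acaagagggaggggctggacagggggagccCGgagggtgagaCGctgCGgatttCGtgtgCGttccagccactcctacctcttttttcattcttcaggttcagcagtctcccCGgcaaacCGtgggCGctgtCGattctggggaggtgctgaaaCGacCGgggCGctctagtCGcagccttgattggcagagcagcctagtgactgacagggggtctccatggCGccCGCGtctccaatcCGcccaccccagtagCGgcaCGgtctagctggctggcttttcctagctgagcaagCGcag
Eya3 promoter: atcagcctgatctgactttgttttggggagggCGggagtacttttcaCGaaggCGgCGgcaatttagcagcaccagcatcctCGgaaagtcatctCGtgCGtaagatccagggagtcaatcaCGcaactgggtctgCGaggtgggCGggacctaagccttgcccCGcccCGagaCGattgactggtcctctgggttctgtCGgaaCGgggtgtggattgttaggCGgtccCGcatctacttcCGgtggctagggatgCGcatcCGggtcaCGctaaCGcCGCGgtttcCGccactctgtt

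Averaged over all probes of a gene, the log2 ratio of Ring1B IP over input reached 1 at Six3, Six2 and Six6, and at no Eya gene. Six6 was high inside the gene (2.23) and not upstream (0.42). Eya4 had 1.11 inside the gene and -0.13 upstream, so the contrast with the Eya genes depended on the stretch averaged. Of the 9 members, 3 reached a mean of 1, against 1.99% of all genes (337 of 16908), and 0 had a mean of -1 or less, against 1.85% (313). The balance over all genes depended on scaling, with 446 high and 61 low after normexp background correction and 505 and 126 without centring, while the same 3 members were high under both. The median of the members' means was 0.20, beside -0.10 over all genes. The 5 Six-family genes, 3 of them at or above 1, had a median of 1.04, and the 4 Eya genes, with 0, had 0.08. All 3 genes at or above 1 were on array 2.

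In order of the mean, the genes were Six3 (2.39), Six2 (1.55), Six6 (1.04), Eya4 (0.32), Eya1 (0.20), Eya2 (-0.03), Six5 (-0.09), Six4 (-0.41) and Eya3 (-0.53). No pair of neighbours in that order differed by more than the larger SD over probes of the pair. That SD is a spread along the gene, not an error of the mean, and does not tell whether the order would hold in a repeat. Six5, Eya1, Eya2 and Eya3 were on array 1, so their places among the others also hold any difference between the arrays. The widest step was 0.84, between Six3 and Six2, followed by 0.72 between Six6 and Eya4.

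**Figure D1:**
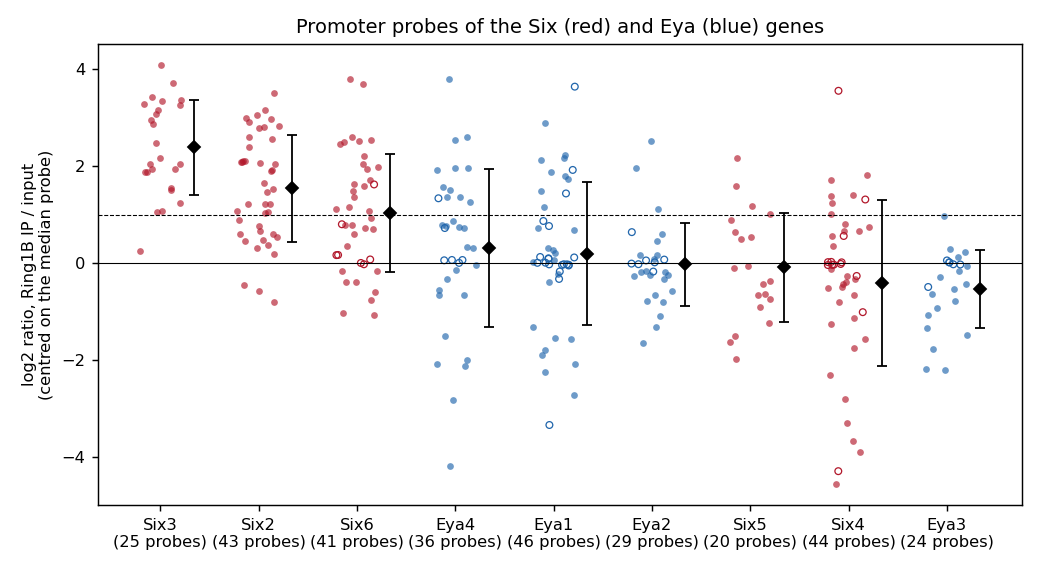
Log2 ratio of Ring1B IP over input (vertical axis, centred on the median probe of the array) for each probe of the 9 genes, upstream or inside the gene, in order of their mean. Filled points are probes well above background in both channels, open points the others, diamonds the mean with bars of 1 SD over probes, and the dashed line a log2 ratio of 1. Of the 25 probes of Six3, 24 lie at or above the dashed line, while the points of Eya4, Eya1 and Six4 spread far to both sides of 0.

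Six3, which represses Wnt genes in the anterior neural plate and is needed for forebrain and eye, had the highest ratio of the family and the second highest of all genes. Its 25 probes had a lowest log2 ratio of 0.25, a median of 2.16 and a highest of 4.09, and the mean was 2.39 ± 0.98 (SD over probes; chr17:83916417-83921722), 5.23-fold above the median probe. The median signal was 10381 in IP DNA and 1697 in input DNA, and all 25 probes were well above background in both channels. No Six3 probe lay below 0, and the single one under 1 was in the shared promoter, at -904 bp from the Six3 start. The ratio was similar on either side of the start, with 2.49 ± 0.80 over 12 probes inside the gene and 2.30 ± 1.15 over the 13 upstream.

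Those 13 upstream probes are also the upstream probes of Six3os1, a long non-coding transcript that runs the other way. Six3os1 had a log2 ratio of 2.23 ± 1.19 over 32 probes, with a lowest of -0.06, a median of 2.29 and a highest of 4.13, and 27 of the probes stood at or above 1. Its 19 probes inside the transcript, which Six3 does not share, had a mean of 2.19 ± 1.26. Both arms of the divergent pair therefore had means above 2 on probes that they do not share. A single region held all 25 probes of Six3 and 25 of the 32 of Six3os1. A region is a run of probes whose running mean over 500 bp on either side stayed at or above 1. This one was 7035 bp long with 37 probes and a mean of 2.42 (chr17:83914688-83921722). It ended at the last Six3 probe, so the array does not show where the signal stopped inside Six3. On the other side it broke off at 1675 bp inside Six3os1. A separate region of 841 bp (6 probes, mean 1.95) followed from 1930 to 2716 bp inside Six3os1.

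Six2, which keeps nephron progenitors of the kidney undifferentiated, lies 60.7 kb from Six3 on the same chromosome by the nearest probes. Its 43 probes had a lowest log2 ratio of -0.80, a median of 1.54 and a highest of 3.50. The mean was 1.55 ± 1.10 (chr17:83982381-83990054), 2.92-fold above the median probe, with median signals of 6094 in IP DNA and 1665 in input DNA. Of the probes 29 stood at or above 1 and 0 at -1 or less, and all 43 were well above background in both channels. The signal came in 3 regions rather than one: 4142 bp around the start (22 probes, mean 1.59), 1027 bp farther upstream (7 probes, 1.14) and 1966 bp at the far upstream end (12 probes, 1.85). By 1000 bp bins the log2 ratio was highest from -5000 to -4000 bp (2.63 ± 0.36, 4 probes) and beyond 2000 bp inside the gene (3.08, 2 probes), and lowest from -4000 to -3000 bp (1.09 ± 0.94, 7 probes).

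Six6, the closest relative of Six3, acts in retina, pituitary and hypothalamus. Its 41 probes had a lowest log2 ratio of -1.08, a median of 0.93 and a highest of 3.81, with a mean of 1.04 ± 1.22 (chr12:70885270-70892984) and median signals of 897 in IP DNA and 473 in input DNA. The mean hides a step at the start of the gene. The 14 probes inside Six6 had 2.23 ± 0.83, and the 27 upstream had 0.42 ± 0.88. The region of Six6 ran from -136 to 2159 bp relative to the start, over 2348 bp with 14 probes and a mean of 2.11. Inside the gene its mean stood beside 2.49 in Six3 and 1.86 in Six2, and upstream beside 2.30 in Six3 and 1.44 in Six2; the upstream gap to Six2 was smaller than the SD over probes of Six2. Input signal was not well above background at 7 Six6 probes, all of them upstream. Of these, 3 had floor values in both channels, which sets their ratio near 0.

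A region of at least 2000 bp held probes of 3 members, the same Six2, Six3 and Six6, against 3.04% of all genes (514). A region of this length with the sign turned, a running mean of -1 or less, touched 0 members and 0.988% of all genes (167). By single probes, 112 of the 308 member probes (36.4%) had a log2 ratio of at least 1, beside 19.7% of all probes, and 42 (13.6%) had one of -1 or less, beside 20.6%. Divided by gene mean, a division that uses the same ratios, the 3 high genes had 73 of 109 probes (67.0%) at or above 1 and 2 (1.83%) at -1 or less. In the other 6 genes pooled, these counts were 39 (19.6%) and 40 (20.1%) of 199. Single genes among these 6 differed, from 0% of probes at or above 1 in Eya3 to 33.3% in Eya4.

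**Figure D2:**
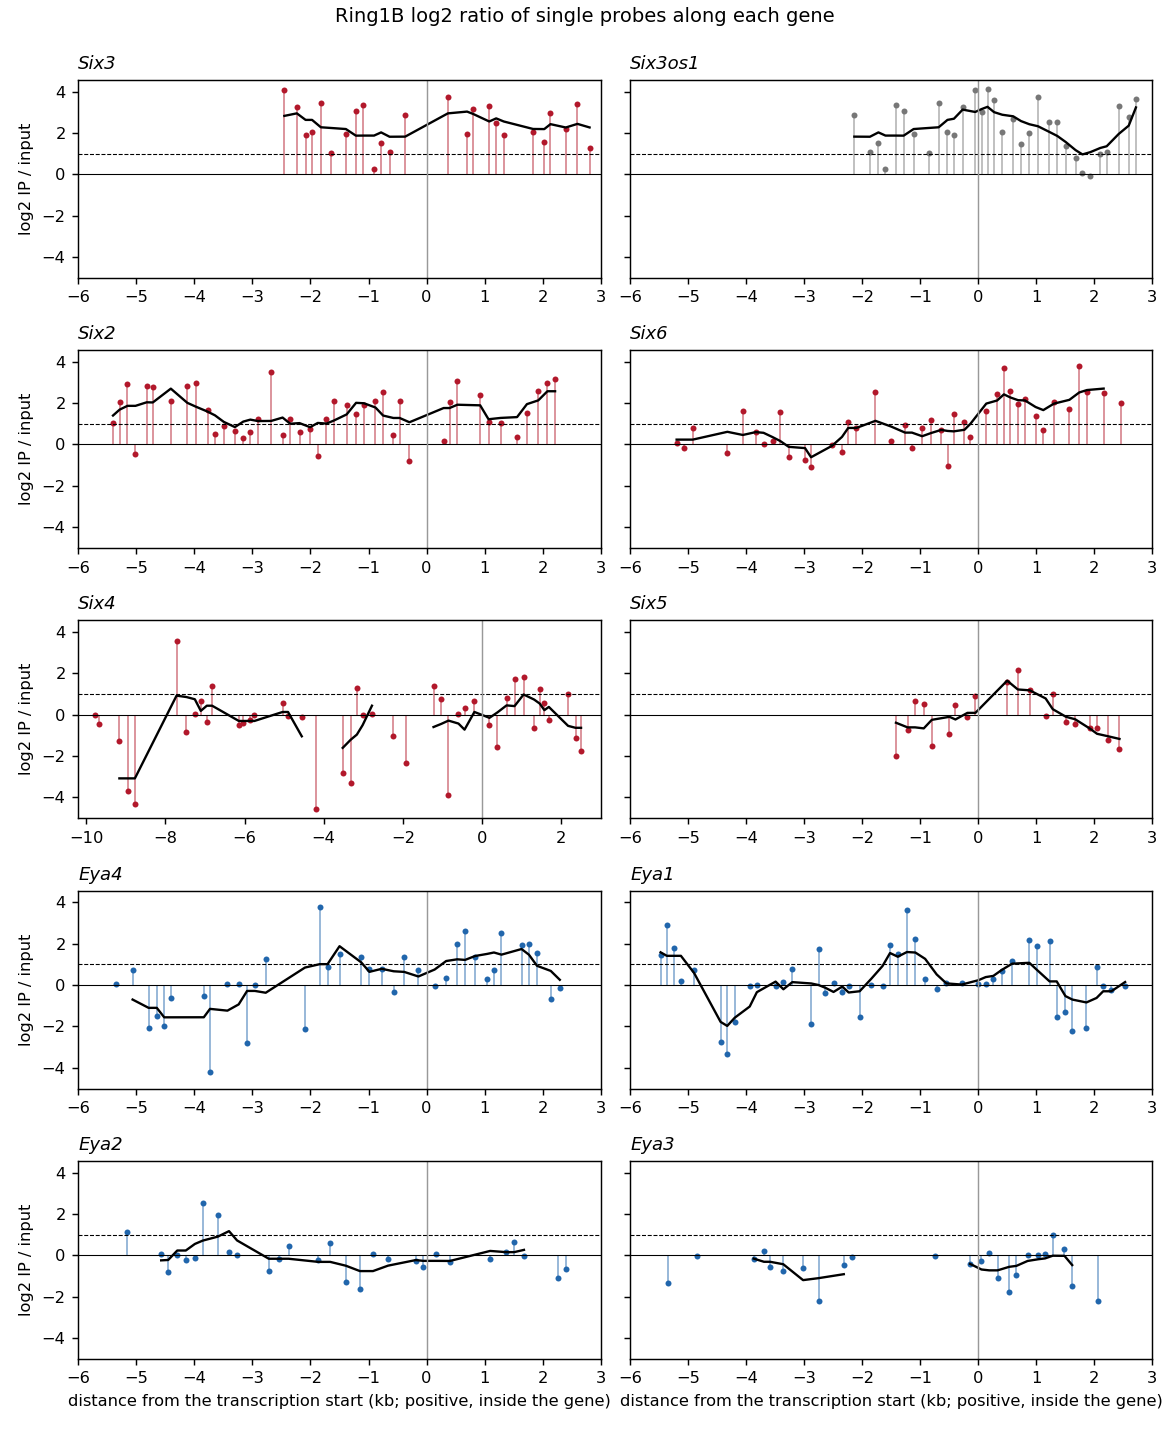
Log2 ratio of IP over input (vertical axes) of single probes against distance from the transcription start in kb, positive inside the gene, for the 9 genes and Six3os1; the panel of Six4 reaches farther upstream. The black line is the running mean of the gene's own probes within 500 bp on either side and the dashed line is a log2 ratio of 1. The running mean stays above 1 across Six3 and rises above it at the start of Six6 and inside Eya4. It lies near 0 over most of Eya2 and below 0 over most of Eya3.

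Six5, known in humans from its place beside the gene mutated in myotonic dystrophy, had no raised mean. Its 20 probes had a lowest log2 ratio of -1.99, a median of -0.24 and a highest of 2.16, with a mean of -0.09 ± 1.13 (chr7:16775474-16779371) and median signals of 937 in IP DNA and 1170 in input DNA. All 20 were well above background in both channels. Its high probes sat together: the 3 probes from 496 to 885 bp inside the gene averaged 1.65 over 434 bp, and the 3 beyond 2000 bp averaged -1.17.

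Six4, which acts in muscle precursors and sensory ganglia, had a mean of -0.41 ± 1.71 over 44 probes (chr12:71061343-71073690), with a median probe of -0.08. Of these, 31 lay in the long stretch between Six4 and the divergent Mnat1, a subunit of the kinase that activates cyclin-dependent kinases, and Mnat1 itself had -0.50 ± 1.84 over 44 probes. The 13 probes of Six4 alone averaged 0.15, so its negative mean came from the shared stretch. The 31 Six4 probes well above background in both channels ran from -4.57 to 1.82, with 8 of all 44 reaching 1 and 12 reaching -1. The lowest region held 3 probes over 452 bp with a mean of -3.08, from -9163 to -8771 bp relative to the Six4 start.

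Eya4, mutated in humans with a form of inherited deafness, was the highest Eya gene. Its 36 probes had a lowest log2 ratio of -4.19, a median of 0.52 and a highest of 3.79, with a mean of 0.32 ± 1.63 (chr10:23104434-23112135) and median signals of 480 in IP DNA and 843 in input DNA. The 13 probes inside the gene had 1.11 ± 1.08 and the 23 upstream had -0.13 ± 1.73. A high region of 1482 bp (9 probes, mean 1.52) covered 338 to 1765 bp inside the gene, and one of 773 bp (4 probes, 1.88) lay from -1839 to -1126 bp. Most of the latter rested on dim input. Its 4 probes had input signals of 108, 1829, 61.9 and 56.5, the last not well above background. Their log2 ratios were 3.79, 0.87, 1.5 and 1.34, with scanner errors of 0.48, 0.23, 1.10 and 1.25. Farther out, from -4789 to -3431 bp, 7 probes formed a low region of 1418 bp with a mean of -1.56. High and low stretches among the probes of one gene thus averaged to a value near 0.

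Eya1, needed for ear and kidney and mutated in humans with branchio-oto-renal syndrome, had a mean of 0.20 ± 1.47 over 46 probes (chr1:14489754-14497816) and a median probe of 0.08. Its signals were the dimmest of the family, with medians of 160 in IP DNA and 95.2 in input DNA. Input was not well above background at 17 probes and 12 had floor values in both channels. Among its 26 probes above background in both, the ratio ran from -2.73 to 2.88, and the median scanner error was 0.88 per probe over all 46, against 0.30 for Six3. Short regions pointed both ways: 665 bp (5 probes, mean 1.92) from -1522 to -917 bp, 405 bp (4 probes, 1.58) at the far upstream end, and a low one of 560 bp (4 probes, -1.98) between them.

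Eya2, active in placodes and muscle, had a mean of -0.03 ± 0.86 over 29 probes (chr2:165390765-165398378), a median probe of -0.15, and a single-probe range of -1.65 to 2.52 among the 22 above background in both channels. Eya3, whose phosphatase acts on a histone variant in the DNA damage response, had -0.53 ± 0.81 over 24 probes (chr4:132012093-132019586), with a median probe of -0.35 and a range of -2.21 to 0.97 among 18. Median signals were 217 in IP DNA and 233 in input DNA for Eya2, and 249 and 456 for Eya3. Neither gene had a region in either direction. Eya3 was the only member with 0 probes at or above 1, and Eya2 had 3.

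Median signals of the 2 channels varied from gene to gene. Six3 and Six2 had the brightest input of the 9 members, 1697 and 1665, followed by Six5 with 1170 and Eya4 with 843, and Six6 had 473. In IP DNA Six3 and Six2 were also brightest, while Six6 with 897 lay just below Six5 with 937. Floor values in both channels filled 3 of the 109 probes of Six3, Six2 and Six6 and 32 of the 199 probes of the other 6 genes. The part of input brightness in the ratios was not tested. With the probes dim in input left out and the arrays centred anew, the means were 1.72 for Six2, which lost no probe, and 1.35 for Six6.

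**Figure D3:**
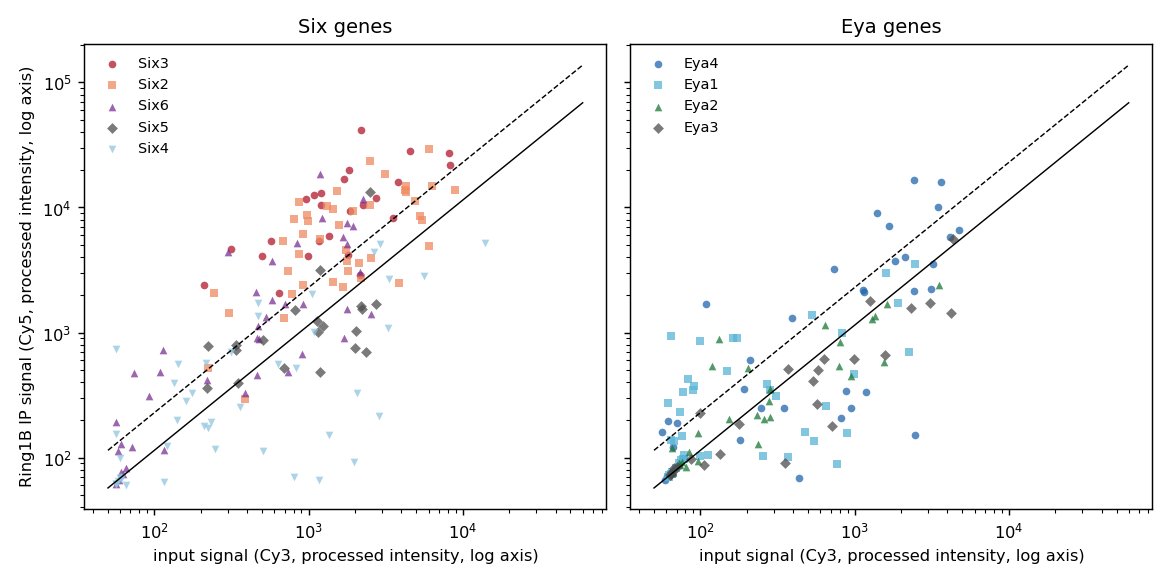
Processed IP signal (vertical) against input signal (horizontal), both on log axes, for each probe of the Six-family genes (left) and Eya genes (right). The solid line is the median probe, averaged over both arrays, and the dashed line is 2-fold above it. Most probes of Six3 and Six2 lie above the dashed line, and the probes of Six4 and of the Eya genes lie on both sides of the lines.

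Position relative to the start differed among the genes. In 7 of 9 members the probes inside the gene had a higher mean than those upstream, beside 53.7% of 14009 genes with both kinds. Inside the gene 4 members averaged at least 1 (Six3, Six6, Six2 and Eya4), against 5.47% of 15412 genes. Upstream, 2 did (Six3 and Six2), against 2.46% of 15413 genes. The gap between inside and upstream was 1.81 in Six6 and 1.24 in Eya4, and it was 0.19 in Six3 and 0.42 in Six2. It was 0.71 in Six4, 0.38 in Six5 and only 0.01 in Eya3, and -0.13 in Eya1 and -0.20 in Eya2.

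The CG content of the probes varied among the members as follows. The probes of Six5 had the most CG dinucleotides, 3.00 per 100 bases, and a mean ratio of -0.09. Six3 and Six2 came next with 2.52 and 2.36. Eya4 had 1.89, Six4 1.72, Eya3 1.61, Six6 1.49 and Eya1, the lowest, 1.26. Eya2, with the same 1.49 as Six6, had a mean of -0.03. Over all probes the mean was 1.42. The part of base composition in the ratios was not tested beyond a correction for probe GC. With ratios corrected for the GC share of each probe, the same 3 members stood at or above 1.

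Lists of genes that work with the 9 members were set beside them, and the lists mix genes of both arrays. Of all genes, 1.99% had a mean of at least 1 and 3.04% had a region of at least 2000 bp. Of 7 Pax and Dach genes, the other members of the network, 4 were at or above 1 and their median was 1.08. Pax6, the eye regulator, had 1.78 ± 1.10 over 64 probes, Pax2 had 1.61 ± 1.49 and Pax3 had 1.43 ± 0.97. Dach1 had 0.48 ± 1.18 and Dach2, the lowest of the list, 0.18 ± 0.97. Pax6 and Pax2 were above Six2, Pax3 lay between Six2 and Six6, and Dach1 was above Eya4, each by less than 1 SD over probes. Pax6 and Pax3 were on array 1 and the other genes of this comparison on array 2. The places of Pax6 and Pax3 thus cannot be told apart from a difference between the arrays.

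Of 11 eye field and forebrain genes, where Six3 and Six6 act, 9 were at or above 1, against 1.99% of all genes. The list's median was 1.32. Otx2 had the highest value at 2.02, followed by Lhx2 at 1.90 and Vax1 at 1.56, and Mitf, a regulator of the retinal pigment epithelium, the lowest at -0.55. Of 12 genes of kidney progenitors, where Six2 and Eya1 act, 6 were at or above 1, with a median of 0.98. Hoxa11 had 2.13, Hoxc11 1.84 and Lhx1 1.83, and Ret, a receptor of the ureteric bud, was lowest at -0.46.

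Of 9 muscle regulators, only Lbx1, which guides migrating muscle precursors, was at or above 1, with 1.43. The list's median was -0.13, with Myf5 at 0.05, Myf6 at -0.01 and Myod1 lowest at -0.48. Of 6 genes active in ES cells, 0 were at or above 1, the median was 0.14, and Tdgf1 had 0.78, Zfp42 0.50, Sox2 0.32 and Pou5f1, the lowest, -0.21. A region of at least 2000 bp touched 1 gene of each of these 2 lists, Lbx1 (3624 bp) and Tdgf1 (3045 bp). ChIP ratios do not measure expression, so neither list tells which cells were used. In these 5 lists 0 genes had a mean of -1 or less. Regions of at least 2000 bp touched 4 Pax and Dach genes, 8 eye field and forebrain genes and 7 genes of the kidney list, against 3.04% of all genes.

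**Figure D4:**
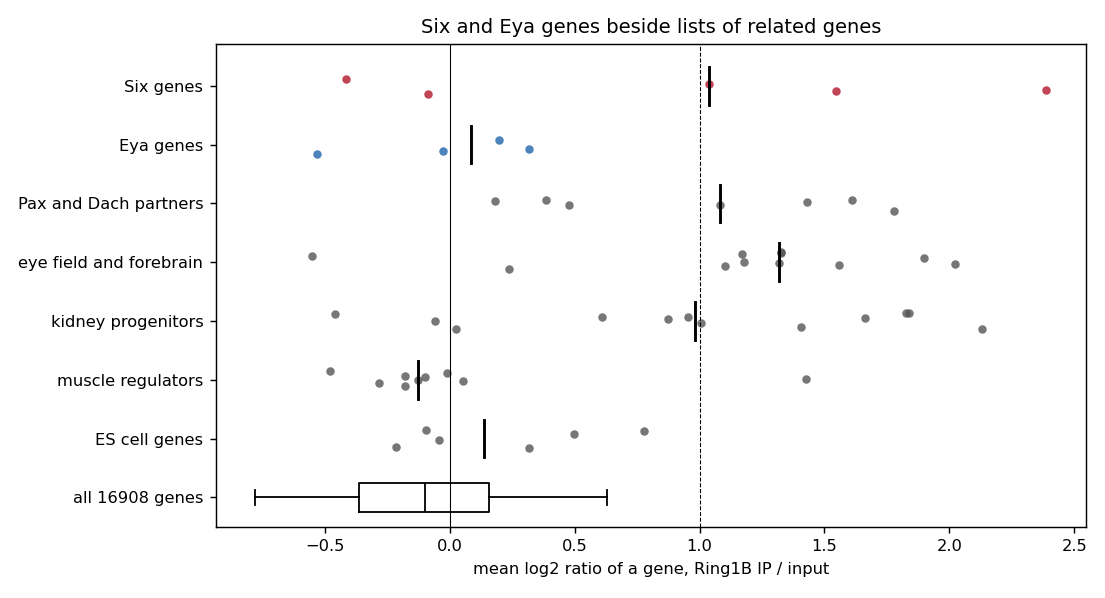
Mean log2 ratio of IP over input (horizontal axis) for each gene of the Six-family and Eya-family and of 5 lists, with a bar at the list's median and the dashed line at 1. The box at the bottom holds the interquartile range of all 16908 genes, with whiskers from percentile 5 to 95. The Six-family genes divide into 3 at or above 1 and 2 below 0, and the Eya genes lie between -0.53 and 0.32.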

How the data were processed

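The 2 arrays carried Ring1B-immunoprecipitated and input DNA of mouse ES cells, amplified by ligation-mediated PCR per the labels' protocols, and the labels' numbering was read as slides because the file headers gave array designs 014716 and 014717. The processed signals are fluorescence intensity values that Agilent Feature Extraction 9.1.3.1 made by subtracting background and scaling each dye by 1 linear factor, with very dim spots set to a floor value, per the file headers. The deposited log10 ratio and its error come from the same software, per the file headers. The deposited series table holds the log2 ratio of mean signals without centring, a reading that matched the array files to within 5e-05 (medians 0.774 and 0.798). Columns of per-sample values left unused for want of a sample numbered 0.

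The log2 ratio of processed signals, Cy5 over Cy3, was centred on each array's median probe (0.23 and 0.16), after 141 and 17 outlier spots were dropped. Genes were named as in the array files, and 1 list gene through an older symbol (Titf1 is Nkx2-1). Distances to the start were taken from the file of array 1. On array 2, where the file gave none, the start was set midway between the last upstream and the first inside probe. A region was a run of at least 3 probes whose running mean reached 1, with gaps under 1000 bp. Python 3.11.15, numpy 2.4.6, pandas 2.3.3, R 4.3.3 and limma 3.58.1 (normexp, offset 50) were used. The procedure was also run on simulated data with known shifts, which checks the code and not the calls in these data. The design foresaw limma across arrays if both carried the same probes, which they did not, so no test was made. All members were named, and of each list the 3 highest genes, the lowest and the Dach genes. The members and lists were chosen with earlier results of these data known. A gene of the Pax and Dach list and a gene of the eye field and forebrain list are not reported here. Alternatives changed the background correction, centring, dim probes, probe GC, summary, window, threshold and region settings.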

Additional observations from a re-analysis of the deposited data

How the results depend on the processing

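Six2 and Six3 stayed at or above the threshold under every alternative run, and Six6 under all but 3: the median of the probes (0.93), a threshold of 1.5 and, chosen after seeing the data, probes upstream only (0.42). Probes inside the gene only, also chosen after seeing the data, added Eya4 (1.11). Over 9 settings the mean ran from 2.08 to 2.75 for Six3, 1.54 to 1.94 for Six2, 0.93 to 1.46 for Six6, 0.32 to 0.95 for Eya4, 0.08 to 0.47 for Eya1 and -0.57 to -0.30 for Eya3. The range crossed 0 for Eya2 (-0.20 to 0.20), Six5 (-0.24 to 0.48) and Six4 (-0.52 to 0.15), and Eya4, at 0.32 with all probes, had -0.13 with probes upstream only, so these have no settled direction. Of all genes, 337 were at or above 1. There were 600 without probes dim in input, 1275 within 1000 bp of the start, 843 with probes inside the gene only, 1288 at a threshold of 0.5 and 110 at 1.5. Low genes numbered 624, 1032, 1013, 2617 and 40 in these settings, against 313 with the settings of the report, and at -0.5 Eya3 was among them. Genes with a region numbered 514, and 1396 at a minimum of 1000 bp, 135 at 4000 bp and 199 at a running mean of 1.5. A minimum of 1000 bp added Eya4 both to the members with a high region and, with the sign turned, to those with a low one (1735 of all genes had a low one), 4000 bp left Six2 and Six3, and 1.5 left Six3 and Six6. The cause of these shifts was not tested, other than that a stricter setting passes fewer genes. Scaling moved the balance of high against low genes from 337 and 313 to 446 and 61 with normexp, 432 and 51 with the deposited series table, 505 and 126 without centring and 387 and 224 after GC correction. The median of all genes moved from -0.10 to 0.10 without centring. Leaving out a replicate was not possible because each probe was on 1 array. No paired analysis was possible because the arrays shared 0 probes, each member was on 1 array and no test was made. Floor values in both channels at 18.2% and 15.5% of probes limit what dim promoters such as Eya1 can show.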
